A study of Homo sapiens with 12 samples.

Results

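Transcripts of 8 genes of the mitochondrial genome were followed in HaCaT, an established human keratinocyte line. They are the cytochrome c oxidase genes MT-CO1, MT-CO2 and MT-CO3, the cytochrome b gene MT-CYB, the ATP synthase genes MT-ATP6 and MT-ATP8, and the ribosomal RNA genes MT-RNR1 and MT-RNR2. The 8 genes were taken by name, and all 8 were found by their Ensembl identifiers in both deposited count tables, among 61498 entries in all and 37 of the mitochondrial genome. All 8 passed the filter on low counts.

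Mitochondrial DNA is a small circle that is transcribed from both strands into long precursors spanning many genes. Transfer RNA genes lie between most of the ribosomal and protein genes, and cutting them out releases the single transcripts, which are then matured and degraded separately. MT-CO1, MT-CO2 and MT-CO3 form the catalytic core of cytochrome c oxidase (complex IV), which passes electrons to oxygen. MT-CYB is the mitochondrially encoded subunit of complex III, MT-ATP6 and MT-ATP8 belong to the membrane part of the ATP synthase, and MT-RNR1 and MT-RNR2 are the RNAs of the small and large subunit of the mitochondrial ribosome.

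The cells carried a short hairpin RNA against MLL1 (shMLL1; gene KMT2A, a histone methyltransferase), against UTX (shUTX; gene KDM6A, a histone demethylase) or against NRF2 (shNRF2; gene NFE2L2, a transcription factor of antioxidant genes), or a control hairpin (shControl), which the labels list as wild type. Each of these 4 derivatives was exposed for 24 h to 100 µM hydrogen peroxide (H2O2), exposed for 24 h to 25 µg/mL cerium oxide nanoparticles (CeO2), or left untreated. Every one of the 12 combinations was sequenced once, from total RNA. Each knockdown is a single derivative, so silencing of the gene and other differences between the derivatives cannot be told apart. The labels do not say that the libraries came from separate cultures, and p-values therefore measure only the spread between these libraries.

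Total counts ran from 5388335 to 7670446 per library, and the mitochondrial genome took 7.41% to 10.0% of them. Outside the mitochondrial genome, most entries could not be read by name: of 931 nuclear genes that most cells use, 293 had no count and 573 had under 1 CPM (counts divided by the library's total and multiplied by 1e6), while in 4 stretches of chromosomes 5, 9, 11 and 19, which were found by this property, 34 of 34 reached 30 CPM. Of 12 keratinocyte markers only AQP3 lies in such a stretch, at 201 to 417 CPM, and KRT5, KRT6A, ITGA6, DSG3 and PERP are listed at 0, so the labelled cell type was checked by 1 gene. The KMT2A entry held 99.7, 35.6 and 32.0 CPM in the H2O2, CeO2 and untreated shMLL1 libraries, against 482, 494 and 464 CPM in those of shControl. It was at 339, 291 and 318 CPM in shUTX in the same order, all below shControl (log2 -0.59 ± 0.21, edgeR adjusted p = 0.0520). The KDM6A entry had 0 to 1 counts in shUTX and 5 to 6 in shControl, and the NFE2L2 entry had 0 counts in shNRF2 and 1 to 16 in shControl, both near the limit of 3 counts that a count of 0 allows. NFE2L2 also had 1 to 4 counts in shMLL1 and shUTX, with 1 count in each of the untreated shMLL1, shUTX and shControl libraries. All 3 of these entries lie outside the stretches where names and counts match. In the mitochondrial genome all 15 mRNA and rRNA entries held many counts and passed the filter on low counts, while 21 of the 22 transfer RNA entries held next to none, and these entries were therefore read by name. Whether counts were exchanged among the 15 entries was not tested.

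Levels are given as CPM after scaling library sizes by the trimmed mean of M-values (TMM), and levels of different genes are compared only per kilobase (kb) of transcript. Per kb, MT-CO2 was the most abundant of the 8 genes, at 13394 ± 1872 CPM per kb (mean ± SD over the 12 libraries), and it exceeded MT-CO1 (11956 ± 1578) in 11 of 12 libraries. MT-CO1 exceeded MT-CO3 (11511 ± 1653) in 8 of 12 libraries, so the order of these neighbours was not the same in every library. MT-ATP6 followed at 8945 ± 1251 CPM per kb, below MT-CO3 in all 12 libraries and above MT-RNR2 (8041 ± 1137) in 9 of 12. MT-CYB stood clearly apart at 4330 ± 533 CPM per kb, below MT-RNR2 and above MT-ATP8 in all 12 libraries. The least abundant genes per kb were MT-ATP8 (2393 ± 299) and MT-RNR1 (2375 ± 646), with MT-ATP8 the higher in 8 of 12 libraries. MT-RNR2 was more abundant per kb than MT-RNR1, which lies next to it on the genome. The labels do not say whether the library kit selected polyadenylated RNA or removed ribosomal RNA, and either step would act on the counts of these rRNAs.

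The genes also differed in how much they varied. The ratio of the highest to the lowest of the 12 libraries was 2.09 for MT-RNR1 and 1.40 to 1.56 for the other 7 genes, and the coefficient of variation was 27.2% for MT-RNR1 and 12.3% to 14.4% for the others. Of the variance of log2 levels, the hairpin accounted for 76.2% in MT-RNR1, 74.2% in MT-CO1 and 68.2% in MT-CYB, and the treatment for 15.6%, 19.4% and 15.9% of it in the same 3 genes. MT-ATP8 was the one gene of the 8 in which the treatment share (44.5%) exceeded the hairpin share (20.0%). Together, the 8 genes took 5.51% to 6.64% of the counts in shMLL1, 5.90% to 6.14% in shUTX, 5.52% to 6.58% in shNRF2 and 6.60% to 7.32% in shControl.

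**Figure D1:**
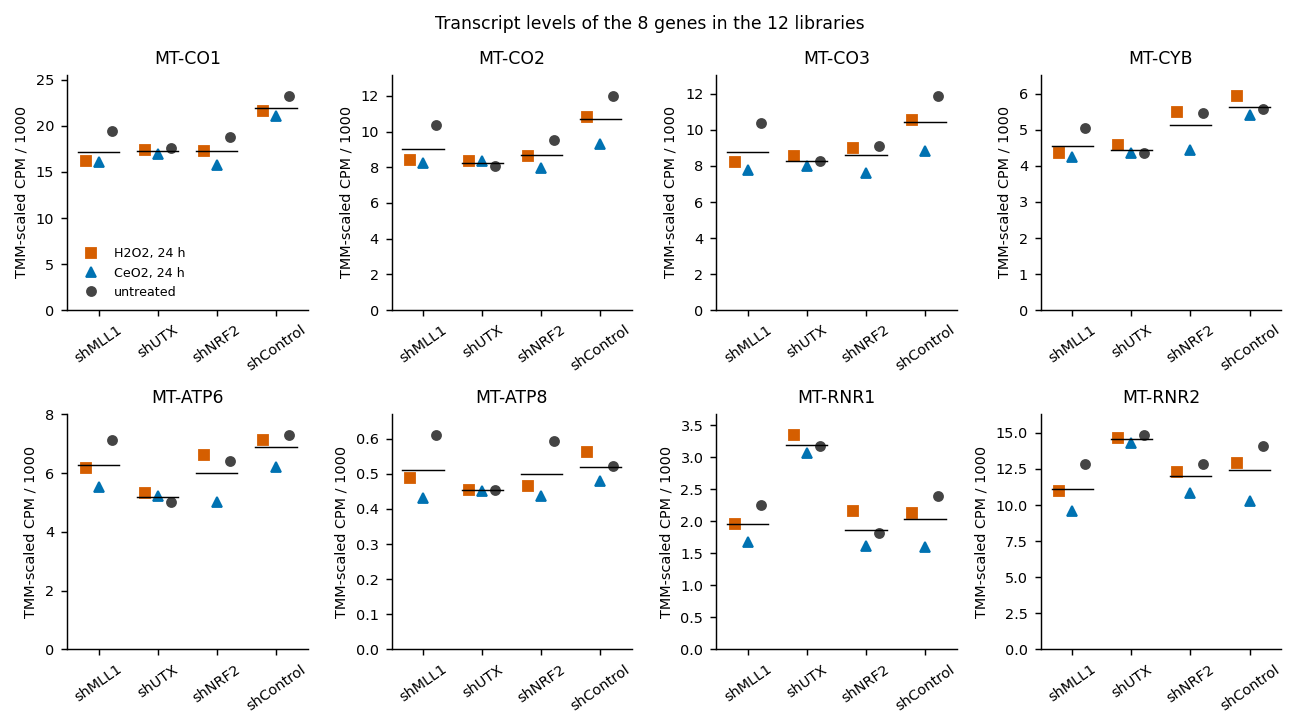
Level of each gene (vertical axes, TMM-scaled CPM divided by 1000, starting at 0) in the 12 libraries, with 1 panel per gene, hairpins along the horizontal axis, symbols for the treatments and a bar for the mean of the 3 libraries of a hairpin. The 3 shUTX libraries lie above all others for MT-RNR1, and all 3 shControl libraries lie above all others for MT-CO1.

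The first question of the design was how the genes stood in each knockdown against shControl across the 3 treatments, and it was tested with edgeR in an additive model of hairpin and treatment (quasi-likelihood, Benjamini-Hochberg adjustment over all 10800 entries tested, threshold 0.05). The 3 comparisons share the shControl libraries and are not independent of each other. In shUTX the rRNAs and the mRNAs of the genes went apart: 2 of 8 genes, both rRNAs, rose, and 5 of 8, all of them mRNAs, fell. Over all entries tested, 26.3% were called in shUTX over shControl, 12.6% higher and 13.7% lower. In shMLL1, 2 of 8 genes fell, MT-CO1 and MT-CYB, where 12.2% of all entries were called and 6.84% were lower. In shNRF2, 1 of 8 fell, MT-CO1, where 5.33% of all entries were called and 2.56% were lower. The median log2 change over the 8 genes was -0.20 in shMLL1, -0.33 in shUTX and -0.17 in shNRF2, and that over all entries lay between 0.00 and 0.02. The 3 shUTX libraries did not overlap the 3 shControl libraries in any of the 8 genes, 6 lower and 2 higher, where 18.1% of all entries were lower and 17.3% higher without overlap. In shMLL1, 2 of 8 genes lay below shControl without overlap (12.1% of all entries), and in shNRF2 1 of 8 (8.52%). In bulk RNA, fewer cells with a transcript and less of it per cell cannot be told apart.

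**Figure D2:**
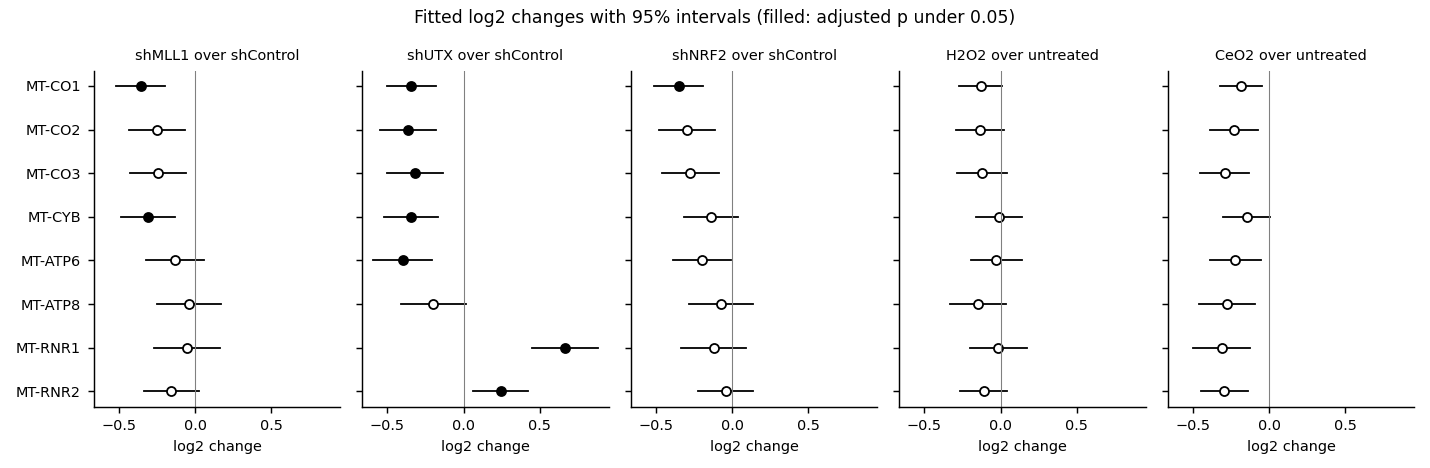
Fitted log2 change (horizontal axis) of each gene with its 95% interval in 5 comparisons from the additive edgeR model, filled where the adjusted p was under 0.05. In shUTX over shControl the rRNAs lie right of 0, with MT-RNR1 at 0.66, and 5 mRNAs lie left of it at -0.40 to -0.32 with filled symbols; in both exposure panels all symbols are open.

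Of the 8 genes, the rRNAs were the ones higher in shUTX than in shControl, and other mitochondrial genes that rose there are given further below. MT-RNR1, on the plus strand of the mitochondrial genome (GRCh38 chrM:648-1601), held 1953, 1674 and 2248 CPM in the H2O2, CeO2 and untreated shMLL1 libraries and 2165, 1616 and 1819 CPM in those of shNRF2. In the same order it held 3344, 3066 and 3170 CPM in shUTX, against 2135, 1598 and 2402 CPM in shControl. All 3 shUTX libraries were above all 9 others, and the other 3 derivatives overlapped one another. How many of all entries have 3 libraries of 1 derivative above all 9 others was not counted. The change in shUTX over shControl was log2 0.66 ± 0.10 (SE), or 1.58-fold (edgeR adjusted p = 0.000263), and it was called under all 22 alternative settings (log2 0.55 to 0.75). In shMLL1 the log2 change was -0.05 (95% interval -0.27 to 0.16) and in shNRF2 -0.12 (-0.34 to 0.09), and neither passed the threshold.

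MT-RNR2 (chrM:1671-3229) held 10994, 9555 and 12862 CPM in the H2O2, CeO2 and untreated shMLL1 libraries and 12311, 10858 and 12833 CPM in those of shNRF2. The shUTX libraries held 14610, 14297 and 14833 CPM, against 12888, 10296 and 14100 CPM in shControl, in the same order. The shUTX libraries were again the 3 highest of the 12, but the CeO2 shUTX library exceeded the untreated shControl library only narrowly. The change in shUTX over shControl was log2 0.24 ± 0.08, or 1.18-fold (edgeR adjusted p = 0.0447), and only 8 of 22 alternatives kept the call. It was lost without the H2O2 or CeO2 shControl library (edgeR adjusted p = 0.0757 and 0.145), without the H2O2 or CeO2 shUTX library (0.144 and 0.326), without any 1 of the shMLL1 libraries (0.0603 to 0.0755) and without the H2O2 or CeO2 shNRF2 library (0.0660 and 0.0600). It was also lost with RLE scaling (0.0617), with scaling that left out the mitochondrial entries (0.0613), with a filter at 5 CPM (0.0783), with DESeq2 (0.0610) and with the 6 compared libraries alone (0.305).

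Of the oxidase mRNAs, MT-CO1 fell in all 3 knockdowns, and MT-CO2 and MT-CO3 fell in shUTX. MT-CO1 (chrM:5904-7445), the subunit with the oxygen-binding centre, held 16144, 16043 and 19435 CPM in the H2O2, CeO2 and untreated shMLL1 libraries and 17239, 15711 and 18841 CPM in those of shNRF2. In the same order it held 17366, 16910 and 17625 CPM in shUTX, against 21564, 21098 and 23249 CPM in shControl. Each of the 9 knockdown libraries was below each of the 3 shControl libraries, and the share of all entries with this pattern was not counted. A lower level in the knockdowns and a higher one in the shControl derivative cannot be told apart here. The log2 change of MT-CO1 was -0.36 ± 0.07 in shMLL1, -0.34 ± 0.07 in shUTX and -0.35 ± 0.07 in shNRF2 (edgeR adjusted p = 0.00562, 0.00358 and 0.0136). Between the knockdowns, the log2 difference of MT-CO1 was 0.01 for shUTX over shMLL1 (95% interval -0.15 to 0.17), 0.01 for shNRF2 over shMLL1 (-0.15 to 0.17) and -0.01 for shNRF2 over shUTX (-0.17 to 0.15). The shMLL1 call was lost without the H2O2 or CeO2 shMLL1 library (adjusted p = 0.0625 and 0.0590), and the shNRF2 call without the H2O2 shControl library (0.0564), without the H2O2 or CeO2 shNRF2 library (0.0595 and 0.0844) and with the 6 compared libraries alone (0.371).

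MT-CO2 (chrM:7586-8269), the subunit that takes electrons from cytochrome c, held 8412, 8237 and 10346 CPM in the H2O2, CeO2 and untreated shMLL1 libraries and 8620, 7942 and 9517 CPM in those of shNRF2. The shUTX libraries held 8353, 8327 and 8080 CPM, against 10826, 9284 and 11990 CPM in shControl, in the same order. All 3 shUTX libraries were below all 3 shControl libraries, while the untreated shMLL1 and shNRF2 libraries lay above the CeO2 shControl library. It fell in shUTX by 0.36 ± 0.09 on the log2 scale (edgeR adjusted p = 0.00600), a call lost without the untreated shUTX library (0.0510). The log2 change was -0.25 ± 0.09 in shMLL1 (adjusted p = 0.0744) and -0.30 ± 0.09 in shNRF2 (0.0596). These missed the threshold, but shMLL1 passed it with plain library totals (0.0497), limma-voom (0.0463) or no filter (0.000138) and without the CeO2 shControl library (0.0371) or the untreated shUTX library (0.0421). In the same way, shNRF2 passed it with plain library totals (0.0481), limma-voom (0.0371), DESeq2 (0.0341) or no filter (3.95e-05), and shNRF2 passed it without the untreated shControl (0.0336), the CeO2 shControl (0.0270) or the untreated shUTX library (0.0336).

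MT-CO3 (chrM:9207-9990), the third core subunit, held 8238, 7750 and 10410 CPM in the H2O2, CeO2 and untreated shMLL1 libraries and 9002, 7638 and 9136 CPM in those of shNRF2. In the same order it held 8557, 8002 and 8286 CPM in shUTX, against 10556, 8841 and 11885 CPM in shControl. The shUTX libraries were all below the shControl libraries, and the other knockdowns overlapped shControl. It fell in shUTX by 0.32 ± 0.09 on the log2 scale (edgeR adjusted p = 0.0141), a call lost without the untreated shUTX library (0.101). The log2 changes of -0.24 ± 0.09 in shMLL1 (adjusted p = 0.0841) and -0.27 ± 0.09 in shNRF2 (0.0860) missed the threshold. Both passed it with no filter (0.000212 and 0.000242), and the shNRF2 one without the CeO2 shControl library (0.0459).

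MT-CYB (chrM:14747-15887) lies far from the oxidase genes on the circle. It held 4366, 4252 and 5042 CPM in the H2O2, CeO2 and untreated shMLL1 libraries and 5504, 4449 and 5465 CPM in those of shNRF2. The shUTX libraries held 4572, 4355 and 4365 CPM, against 5940, 5404 and 5572 CPM in shControl, in the same order. The shMLL1 and shUTX libraries were all below those of shControl, and 2 of the 3 shNRF2 libraries lay within the shControl range. MT-CYB fell by 0.31 ± 0.08 in shMLL1 and by 0.35 ± 0.08 in shUTX on the log2 scale (edgeR adjusted p = 0.0231 and 0.00639), while the log2 change in shNRF2 was -0.14 ± 0.08 (0.377). The shMLL1 call was lost without the H2O2 or CeO2 shMLL1 library (adjusted p = 0.166 and 0.120) and without the H2O2 or CeO2 shControl library (0.0877 and 0.0524).

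MT-ATP8 and MT-ATP6 are read from 1 shared messenger RNA and overlap on the genome, which bears on how their reads can be assigned. MT-ATP8 spans 207 bases (chrM:8366-8572) and MT-ATP6 681 bases (chrM:8527-9207), both on the plus strand. They share 46 bases, 22.2% of MT-ATP8 and 6.75% of MT-ATP6, shown in capitals in the whole MT-ATP8 sequence and in the first 90 bases of MT-ATP6, both from the GENCODE 29 transcripts of GRCh38.
MT-ATP8: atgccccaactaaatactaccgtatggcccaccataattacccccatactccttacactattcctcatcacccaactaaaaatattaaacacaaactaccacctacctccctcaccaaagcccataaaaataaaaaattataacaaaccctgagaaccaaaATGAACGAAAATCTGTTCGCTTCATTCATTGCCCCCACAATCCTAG
MT-ATP6: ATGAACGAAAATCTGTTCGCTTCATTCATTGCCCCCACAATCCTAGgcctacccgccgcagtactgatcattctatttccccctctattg
The start codon of MT-ATP6 opens the capitals, so the same bases are read in another frame as the end of MT-ATP8. MT-ATP6 in turn shares its last base with the first base of MT-CO3, written as a capital in the last 30 bases of MT-ATP6 (chrM:9178-9207) and the first 30 of MT-CO3 (chrM:9207-9236).
MT-ATP6 end: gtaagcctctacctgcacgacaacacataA
MT-CO3 start: Atgacccaccaatcacatgcctatcatata
The labels do not tell how reads over shared bases were counted, so the counts of MT-ATP8 and MT-ATP6 are uncertain by that part.

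MT-ATP6, which forms the proton channel of the ATP synthase with nuclear-encoded subunits, held 6187, 5533 and 7138 CPM in the H2O2, CeO2 and untreated shMLL1 libraries and 6609, 5022 and 6421 CPM in those of shNRF2. In the same order it held 5317, 5225 and 5012 CPM in shUTX, against 7130, 6212 and 7292 CPM in shControl. All 3 shUTX libraries were below all 3 shControl libraries, and the other knockdowns overlapped shControl. MT-ATP6 fell in shUTX by 0.40 ± 0.09 on the log2 scale, or 1.32-fold (edgeR adjusted p = 0.00430). The log2 changes of -0.13 ± 0.09 in shMLL1 and -0.20 ± 0.09 in shNRF2 did not pass the threshold (adjusted p = 0.39 and 0.234).

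MT-ATP8, a short membrane subunit next to MT-ATP6 in the enzyme, held 488, 432 and 609 CPM in the H2O2, CeO2 and untreated shMLL1 libraries and 465, 437 and 594 CPM in those of shNRF2. The shUTX libraries held 454, 449 and 455 CPM, against 562, 478 and 522 CPM in shControl, in the same order. The shUTX libraries were close to each other and below all shControl libraries, whereas shMLL1 had both the highest and the lowest value of the gene. Its log2 change was -0.20 ± 0.10 in shUTX (edgeR adjusted p = 0.158), -0.04 ± 0.10 in shMLL1 (0.841) and -0.07 ± 0.10 in shNRF2 (0.732). The shUTX value passed the threshold when the untreated shControl library was left out (log2 -0.30, adjusted p = 0.0107).

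The 5 mRNA calls of shUTX over shControl were lost when only the 6 compared libraries were fitted. With only the 6 compared libraries, which leave 2 residual degrees of freedom, their adjusted p-values were 0.0640 to 0.144, and MT-RNR1 was the 1 gene of 8 called. The log2 changes of these 5 mRNAs stayed at -0.41 to -0.33 in that fit. Fitting only the compared libraries also brought calls in comparisons without shControl. MT-CYB and MT-ATP6 passed the threshold in shNRF2 over shUTX (edgeR adjusted p = 0.000254 and 0.00153), and MT-ATP6 in shUTX over shMLL1 (0.00580). The cause of this difference was not tested.

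Set against each other, shUTX differed from shMLL1 and shNRF2 in the rRNAs among the 8 genes. The difference was not particular to them. The complex I genes MT-ND1 and MT-ND2 and the proline transfer RNA gene MT-TP were called as well. Their log2 differences were 0.38, 0.49 and 0.75 in shUTX over shMLL1 (edgeR adjusted p = 0.00676, 0.00210 and 6.33e-05). In shNRF2 over shUTX they were -0.38, -0.40 and -0.76 (edgeR adjusted p = 0.00555, 0.00663 and 4.98e-05). In shUTX over shMLL1, MT-RNR1 was higher by log2 0.72 ± 0.10 and MT-RNR2 by log2 0.40 ± 0.08 (edgeR adjusted p = 0.000170 and 0.00387), 2 of 8 genes where 18.0% of all entries were called and 8.50% were higher. Both calls held under all 22 alternatives. The log2 difference of MT-ATP6 was -0.27 ± 0.09 (adjusted p = 0.0519) and passed the threshold with plain library totals (0.0103), limma-voom (0.0316), no filter (0.000420) or the compared libraries alone (0.00580) and without the untreated shControl (0.00810), the CeO2 shControl (0.0415) or the CeO2 shUTX library (0.0253). In shNRF2 over shUTX, MT-RNR1 was lower by log2 -0.78 ± 0.10 and MT-RNR2 by log2 -0.29 ± 0.08 (adjusted p = 7.03e-05 and 0.0223), 2 of 8 genes where 23.4% of all entries were called and 10.7% were lower. The MT-RNR1 call held under all 22 alternatives. The MT-RNR2 call was lost without the H2O2 or CeO2 shUTX library (0.0768 and 0.182) and without any 1 of the shNRF2 libraries (0.0668 to 0.0789).

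In shNRF2 over shMLL1 edgeR called 0 of 8 genes, where 11.3% of all entries were called. At an unadjusted p under 0.05 edgeR and DESeq2 had 0 of 8 and limma-voom 1, and neither DESeq2 nor limma-voom called any after adjustment. The largest log2 difference was that of MT-CYB, 0.17 (95% interval -0.01 to 0.35). These comparisons of knockdowns also share libraries with one another and with those against shControl.

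Ratios of counts within a library do not depend on how libraries are scaled, and they are given without a test. Per 100 counts of the 6 mRNAs together, the 2 rRNAs had 40.2, 40.1 and 41.1 counts in the H2O2, CeO2 and untreated shUTX libraries. They had 29.5, 26.6 and 28.5 in shMLL1, 30.5, 30.3 and 29.3 in shNRF2, and 26.6, 23.2 and 27.3 in shControl. All 3 shUTX libraries lay above the other 9, and they differed less from each other than the libraries of any other derivative. The rRNAs also changed against each other, with 4.37, 4.66 and 4.68 MT-RNR2 counts per MT-RNR1 count in shUTX, below the other 9 libraries, which ran from 5.63 to 7.05. MT-ATP8 had 8.53 to 9.07 counts per 100 of MT-ATP6 in shUTX, against 7.16 to 7.88 in shControl. In shMLL1 this ratio ran from 7.81 to 8.54 and in shNRF2 from 7.04 to 9.25, so both overlapped shControl.

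**Figure D3:**
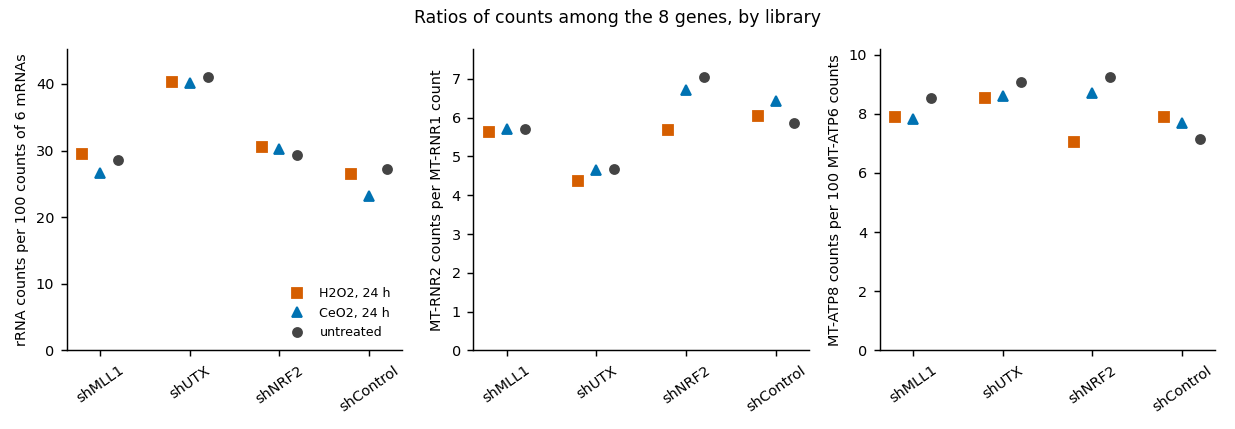
Ratios of counts within each of the 12 libraries (vertical axes, starting at 0): rRNA counts per 100 counts of the 6 mRNAs, MT-RNR2 counts per MT-RNR1 count, and MT-ATP8 counts per 100 MT-ATP6 counts, by hairpin along the horizontal axis. The shUTX libraries are the highest in the left panel, near 40, and the lowest in the middle panel.

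In genome order, the fitted changes of shUTX were above 0 for the first genes and below 0 for the next ones, a split that was not tested. MT-RNR1 and MT-RNR2 are followed by MT-ND1 and MT-ND2, subunits of complex I, and then by MT-CO1. MT-ND1 and MT-ND2 rose in shUTX over shControl (log2 0.25 ± 0.09 and 0.36 ± 0.09, edgeR adjusted p = 0.0423 and 0.0118). All of the next 5 genes, MT-CO1 to MT-CO3 in genome order, had log2 changes of -0.40 to -0.20. Of the 7 complex I genes, 2 rose and 1 fell in shUTX, namely MT-ND4 (log2 -0.34 ± 0.08, adjusted p = 0.00649), and MT-ND3, MT-ND4L, MT-ND5 and MT-ND6 had log2 changes of -0.22 to 0.02 that missed the threshold. In shMLL1, 1 of 7 fell (MT-ND6, log2 -0.45 ± 0.10, adjusted p = 0.00636), and in shNRF2 2 of 7 fell (MT-ND6, log2 -0.41 ± 0.10, 0.0234; MT-ND4, log2 -0.32 ± 0.08, 0.0364). MT-ND6 is the protein gene encoded on the minus strand.

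Of the 22 transfer RNA entries, 1 passed the filter on low counts, MT-TP, the proline transfer RNA, and the other 21 summed to 0 to 4 counts per library. MT-TP rose in shUTX over shControl (log2 0.53 ± 0.09, edgeR adjusted p = 0.000758). It is encoded on the minus strand, and the labels do not tell whether strand entered the counting, so its counts cannot be told apart from those of transcripts of the opposite strand.

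**Figure D4:**
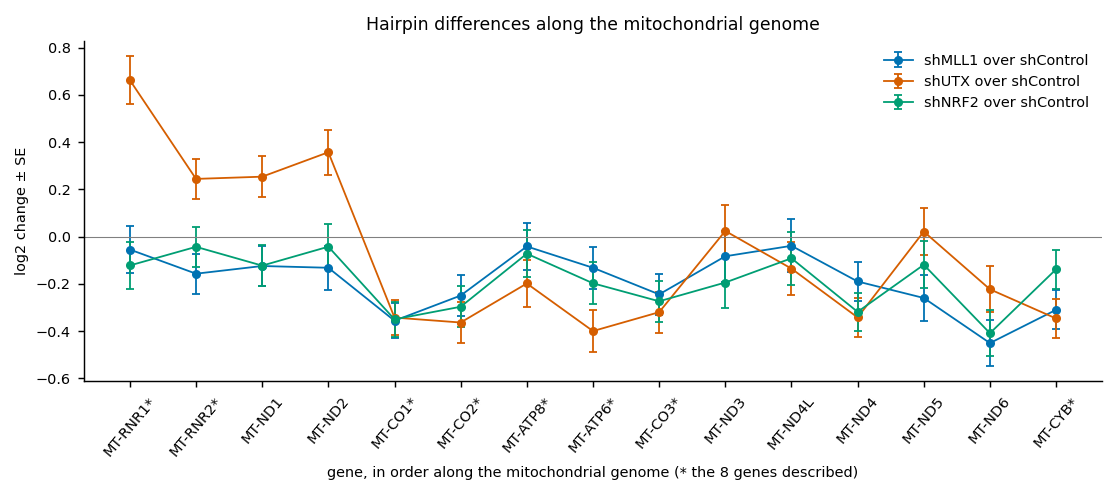
Fitted log2 change ± SE (vertical axis) of 15 genes, set evenly in their order along the mitochondrial genome (horizontal axis; asterisks mark the 8 genes described), for the 3 knockdowns over shControl. The shUTX line is at 0.24 to 0.66 for MT-RNR1, MT-RNR2, MT-ND1 and MT-ND2 and at -0.40 to -0.20 from MT-CO1 to MT-CO3, and the lines of shMLL1 and shNRF2 are below 0 at every gene.

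The second question of the design was how exposure changed the genes across the 4 derivatives. After CeO2, all 8 genes were below untreated in the fit, with a median log2 change of -0.25 against 0.00 over all entries, but none passed the adjusted threshold. The largest were MT-RNR1 (log2 -0.31 ± 0.09), MT-RNR2 (-0.29 ± 0.07) and MT-CO3 (-0.29 ± 0.08), and the smallest MT-CYB (-0.15 ± 0.07), with edgeR adjusted p-values of 0.197 to 0.299 over the 8 genes. edgeR called 0 of 8 genes, where 0.0185% of all entries were called. At an unadjusted p under 0.05 it had 7 of 8, DESeq2 7 and limma-voom 8, where 1888, 1381 and 1951 of all 10800 entries passed. After adjustment DESeq2 called 1 of 8 (MT-RNR2, adjusted p = 0.0471), where it called 20 entries higher and 24 lower, and limma-voom called 0. Without a filter on low counts edgeR called 7 of 8 lower, where 190 of 26202 entries were called lower and 353 higher.

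After H2O2, all 8 genes were below untreated in the fit as well, where 47.6% of all entries were. The changes were smaller, with a median log2 change of -0.12 and a range of -0.15 to -0.01. With plain library totals 5 of 8 were below 0 (median -0.05). Without the untreated or the H2O2 shMLL1 library it was also 5 of 8. Without the untreated shControl or the untreated shNRF2 library it was 7 of 8. edgeR called 0 of 8 genes, where 0.00% of all entries were called. At an unadjusted p under 0.05 edgeR and DESeq2 had 0 of 8 and limma-voom 1, where 2102, 1562 and 2149 of all 10800 entries passed. Both other tools called 0 of 8 after adjustment. In H2O2 over CeO2 all 8 genes were above 0, by 0.05 to 0.30 on the log2 scale, with MT-RNR1 the largest (log2 0.30 ± 0.09, edgeR adjusted p = 0.428). edgeR called 0 of 8 there, where 0.0370% of all entries were called, and had 4 of 8 at an unadjusted p under 0.05, DESeq2 3 and limma-voom 5. Of all 10800 entries, 670, 361 and 678 had an unadjusted p under 0.05 in these tools. DESeq2 and limma-voom called 0 of 8 after adjustment. MT-RNR1 passed the threshold in H2O2 over CeO2 when the untreated shControl library was left out (log2 0.30, adjusted p = 0.0246) and when only the 8 exposed libraries were fitted (0.00427). Both exposures share the untreated libraries.

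Within the derivatives the exposure ratios differed. The log2 ratio of the CeO2 library over the untreated one had a median over the 8 genes of -0.40 in shMLL1 (8 of 8 below 0), -0.03 in shUTX (6 of 8), -0.26 in shNRF2 (8 of 8) and -0.30 in shControl (8 of 8). For H2O2 the medians were -0.25 in shMLL1 (8 of 8 below 0), 0.05 in shUTX (3 of 8), -0.04 in shNRF2 (5 of 8) and -0.12 in shControl (6 of 8). The medians were lowest in shMLL1 for both agents, and in shUTX all ratios lay between -0.06 and 0.09. Over all entries the medians of these ratios lay between 0.00 and 0.03, and 47.2% to 50.5% of the entries were below 0. A log2 ratio below 0 in all 4 derivatives was found for 6 of 8 genes with CeO2, all except MT-CO2 and MT-ATP6, where 11.2% of all entries showed it. With H2O2 it was found for 2 of 8, MT-CO1 and MT-RNR2, where 13.2% of all entries showed it. The signs in shControl depended on the scaling. In CPM without TMM scaling, MT-CO1, MT-CYB and MT-ATP8 of shControl were above untreated after CeO2 and the others below. After H2O2, MT-CO3 and MT-RNR1 of shControl were below untreated on that scale and the others above. MT-CO1 held 21247 CPM in untreated shControl, 22042 CPM after H2O2 and 22041 CPM after CeO2 on that scale.

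**Figure D5:**
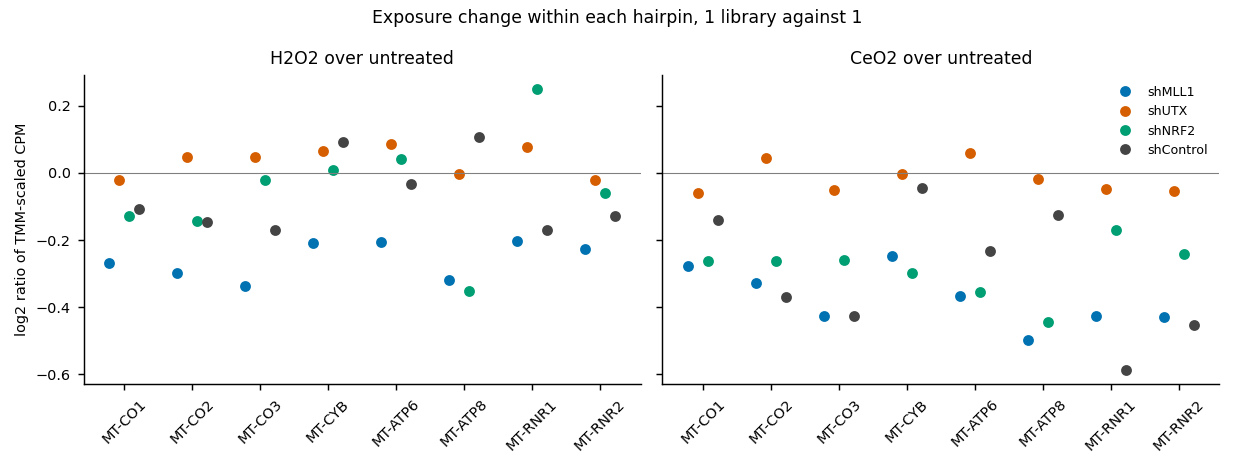
Log2 ratio of the exposed over the untreated library of the same derivative (vertical axis) for each gene (horizontal axis), with 1 library on each side and no error, for H2O2 in the left and CeO2 in the right panel. The shUTX points stay between -0.06 and 0.09, and with CeO2 the points of the other 3 derivatives are all below 0.

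Whether the exposure response of a knockdown differed from that of shControl was tested with a term for exposure to either agent, which leaves 3 residual degrees of freedom and is exploratory. Each response sets 2 exposed libraries, 1 of each agent, against 1 untreated library, so it rests on a single library on the untreated side. The difference of MT-RNR1 passed the threshold in shUTX (log2 0.39 ± 0.13, edgeR adjusted p = 0.0398) and in shNRF2 (0.42 ± 0.13, 0.0265). Its level after H2O2 and CeO2 was 3344 and 3066 CPM in shUTX, against 3170 CPM untreated, and 2165 and 1616 CPM in shNRF2, against 1819 CPM untreated. In shControl it was 2135 and 1598 CPM after H2O2 and CeO2, against 2402 CPM untreated. Both exposed shControl libraries were below the untreated one, and each of these knockdowns had 1 exposed library above and 1 below its untreated one.

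For MT-ATP8 the response difference passed the threshold in shNRF2 (log2 -0.39 ± 0.12, edgeR adjusted p = 0.0315). It held 465 and 437 CPM in shNRF2 after H2O2 and CeO2, against 594 CPM untreated, and 562 and 478 CPM in shControl, against 522 CPM untreated. In shMLL1 the difference was of the same size (log2 -0.40 ± 0.12) and missed the threshold (adjusted p = 0.108). It passed the threshold without the CeO2 shControl library (0.0163) and with plain library totals (0.0369). In all, 1 of 8 genes was called in shUTX, higher (14.4% of all entries were called and 6.80% higher), and 2 of 8 in shNRF2, 1 higher and 1 lower (16.6% of all entries were called, 8.02% higher and 8.59% lower). In shMLL1 edgeR called 0 of 8 (0.648% of all entries). For shMLL1, edgeR had 2 of 8 at an unadjusted p under 0.05, DESeq2 1 and limma-voom 3, where 1715, 568 and 1643 of all 10800 entries passed. DESeq2 and limma-voom called 0 of 8 after adjustment.

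All 3 response comparisons rest on the single untreated library of shControl and the single untreated library of the knockdown. The MT-RNR1 call held under 15 of 20 alternatives in shUTX and 16 of 20 in shNRF2, and the MT-ATP8 call of shNRF2 under 14 of 20. With plain library totals the MT-RNR1 differences were log2 0.23 in shUTX and 0.25 in shNRF2 (edgeR adjusted p = 0.193 and 0.150), and the median over all entries moved by more than 0.1, to -0.18 in shUTX and -0.19 in shNRF2. The MT-RNR1 call of shUTX was lost without the CeO2 shUTX library (0.192) and without the H2O2 or CeO2 shMLL1 library (0.0765 and 0.0776), and with the compared libraries alone (0.155). The MT-RNR1 call of shNRF2 was lost without the H2O2 shNRF2 library (0.107) and without the H2O2 or CeO2 shMLL1 library (0.0556 and 0.0564). The MT-ATP8 call of shNRF2 was lost without the H2O2 or CeO2 shNRF2 library (0.0842 and 0.0538), without the H2O2 or CeO2 shMLL1 library (0.0627 and 0.0636), with the compared libraries alone (0.101) and with DESeq2 (0.0852). Without the H2O2 shControl library the shUTX responses of MT-CO2, MT-CO3 and MT-RNR2 were also called (log2 0.39, 0.36 and 0.35, adjusted p = 0.00279, 0.00744 and 0.00828). The shNRF2 response of MT-CYB was called with plain library totals (log2 -0.34, edgeR adjusted p = 0.0350).

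Few nuclear partners could be set beside these genes, because names could be read only in the matched stretches. Of 9 nuclear genes of complex III 1 lies there, of 13 of complex IV 0, of 18 of the ATP synthase 1, and of 34 of mitochondrial RNA synthesis and processing 1. UQCR11, a subunit of complex III, and ATP5F1D, a subunit of the ATP synthase, were not called in any knockdown or exposure in the additive model. In shUTX over shControl their log2 changes were -0.13 ± 0.13 and -0.36 ± 0.16 (edgeR adjusted p = 0.507 and 0.112). The untreated shControl library stood apart in both: ATP5F1D held 634 CPM there and 311 to 455 CPM in the other 11 libraries, and UQCR11 328 CPM there and 195 to 254 CPM in the others. In the response comparisons both were called higher in all 3 knockdowns. The differences of ATP5F1D were 1.53-fold in shMLL1, 1.84-fold in shUTX and 2.14-fold in shNRF2 (SE 0.12 on the log2 scale, edgeR adjusted p = 0.0268, 0.000144 and 1.80e-05). Those of UQCR11 were 1.45-fold, 1.66-fold and 1.74-fold in the same 3 knockdowns (SE 0.12, adjusted p = 0.0496, 0.000794 and 0.000278). The TMM factor of the untreated shControl library was also the lowest, 0.914 against 0.968 to 1.04 in the others. The part of this library in the response differences of MT-RNR1 and MT-ATP8 was not tested. In the additive model no call of the 8 genes in a knockdown over shControl was lost when it was left out.

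FASTKD3, whose product is a mitochondrial RNA-binding protein, is the matched gene of the RNA synthesis and processing list and was singled out after its values were seen. It held 160, 148 and 175 CPM in the H2O2, CeO2 and untreated shUTX libraries, against 110, 101 and 113 CPM in those of shControl. All 3 shUTX libraries were above all 3 shControl libraries, and FASTKD3 rose by log2 0.57 ± 0.08 (edgeR adjusted p = 0.000116). In shMLL1 and shNRF2 its log2 changes were -0.09 ± 0.08 and 0.12 ± 0.08 (adjusted p = 0.518 and 0.441).

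Likeness of pattern was measured as Pearson's r of log2 levels over the 12 libraries with the mean log2 level of the 8 genes, among 357 other entries of the mitochondrial genome and the matched stretches. It is a description, and the points share the libraries and their scaling. The 5 most alike were R3HDM4 (r = 0.86), MT-ND3 (0.86), MT-ND6 (0.83), the entry ENSG00000271781 (0.75) and MT-ND4 (0.75). The 5 least alike were RGP1 (r = -0.73), UHRF1 (-0.64), RIMOC1 (-0.60), the translation factor gene EEF2 (-0.52) and PRKAA1 (-0.48), a catalytic subunit of the AMP-activated kinase. The 8 genes were not alike among themselves: the r of each with the mean of the other 7 was 0.90 for MT-CO3, 0.81 for MT-CO2, 0.78 for MT-CO1, 0.63 to 0.64 for MT-CYB, MT-ATP6 and MT-ATP8, 0.54 for MT-RNR2 and 0.08 for MT-RNR1.

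Nuclear copies of mitochondrial sequence can draw reads from the genes. Copies of 5 genes lie together on chromosome 1, and their entries are listed at 0 in all libraries. Over their full length the copies of MT-CO1, MT-CO2, MT-ATP6 and MT-ATP8 are identical to the genes at 98.6%, 98.0%, 98.5% and 97.6% of bases in the GENCODE 29 transcripts. Of 34 nuclear copies in the table, 27 had no count, and all 34 together had 3 to 13 counts per library. None of these entries lies where names and counts match, so the reads of the copies cannot be told from these counts.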

How the data were processed

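RNA of 12 HaCaT libraries, 1 for each of 4 hairpins and 3 treatments, was sequenced from TruSeq libraries. The authors deposited raw read counts per Ensembl gene in 2 tables; the submitters' processing notes name GRCh38 and the tools HTSeq 0.11.1, SAMtools 1.12, HISAT2 2.2.1 and Trimmomatic 0.39, without settings or annotation. Untreated counts were read from the H2O2 table; its copy in the CeO2 table differs in 1 cell, of none of the 8 genes. Positions, lengths and sequences came from GENCODE 29.

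A filter kept the 10800 entries that reached 1 CPM in 3 or more libraries, sizes were scaled by TMM, and edgeR 4.0.16 (R 4.3.3; glmQLFit, glmQLFTest, two-sided) was fitted with hairpin and treatment (6 residual degrees of freedom) or with a further knockdown-by-exposure term (3 residual degrees of freedom). Alternatives were RLE, upper-quartile, plain and non-mitochondrial scaling, filters of none and 5 CPM, DESeq2 1.42.0, limma-voom 3.58.1, the compared libraries alone, the other untreated copy and each library left out. The code was tested on simulated data. Library totals set the counting precision; intervals on shares are exact binomial at 95% and cover counting error only.

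By rule all 8 genes are reported in every comparison, in some only by their count and range. Further genes are the mitochondrial ones, nuclear partners in stretches where names and counts match (runs of common genes with counts, found with a hidden Markov model), and the 5 most and least alike in pattern with a mean of at least 5 CPM. The members and lists were chosen with earlier results of these data known.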

Additional observations from a re-analysis of the deposited data

Results flagged for a closer look

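The exposure response of MT-RNR1 in shUTX over that in shControl passed the threshold, with a log2 difference of 0.394 in edgeR (adjusted p = 0.0398), and so did that in shNRF2, with 0.419 (adjusted p = 0.0265). For MT-ATP8 the response in shNRF2 over that in shControl passed it, with -0.389 (adjusted p = 0.0315). All 3 values rest on a single untreated library of shControl and of the knockdown, and on 3 residual degrees of freedom.

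Within a treatment, 3 of 24 groups of 4 libraries, 1 from each derivative, held a library far from the others. In each of these 3, the gap of the far library to the nearest other, as a share of the whole range, exceeded 0.829. The 4 libraries of a group are different derivatives and not replicates, and the groups share libraries. These flags are therefore a description, with no rate by chance to set them against. MT-RNR1 was highest in shUTX after CeO2 (share 0.949) and after H2O2 (share 0.848). MT-CO2 was highest in shControl after H2O2 (share 0.892).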

How the results depend on the processing

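Over 12 comparisons, 17 of 96 effects of the 8 genes were called, and none of these changed direction under any of 22 alternatives. Among the effects not called, 29 changed sign in at least 1 setting. The number of the 8 genes called moved by over 1.5 times, or to or from 0, as follows. With the compared libraries only it was 1 in shUTX over shControl, 0 in shNRF2 over shControl, 4 in shNRF2 over shUTX, 1 in H2O2 over CeO2, and 0 and 1 in the exposure responses of shUTX and shNRF2. Without a filter it was 5 in shMLL1 over shControl, 4 in shNRF2 over shControl, 1 in shNRF2 over shMLL1, 4 in shNRF2 over shUTX, 7 in CeO2 over untreated, 1 in H2O2 over CeO2 and 3 in the shUTX response. With plain totals it was 2 in shNRF2 over shControl, 4 in shNRF2 over shUTX, 1 in the shMLL1 response and 0 in the shUTX response. DESeq2 called 2 in shNRF2 over shControl, 1 in CeO2 over untreated and 1 in the shNRF2 response, limma-voom 2 in shNRF2 over shControl and 3 in the shUTX response, and RLE scaling 3 in the shUTX response. By less, it was 6 in shUTX over shControl with RLE, DESeq2, the 5 CPM filter and non-mitochondrial scaling, 3 in shMLL1 over shControl with plain totals and limma-voom, and 3 in shUTX over shMLL1 with these 2, no filter and the compared libraries. Calls over all entries also moved with the setting. Without a filter, 566 of 26202 entries were higher and 872 lower in shMLL1 over shControl, and 509 and 398 in shNRF2 over shControl. The main fit had 581 and 739 of 10800 in the first and 300 and 276 in the second. With the compared libraries only, 86 of 10286 were higher and 68 lower in shNRF2 over shControl. A shift of the 8 genes beyond that of all entries was not tested.

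Leaving out 1 library at a time, the number called ran from 0 to 3 in shMLL1 over shControl, 5 to 8 in shUTX over shControl, 0 to 3 in shNRF2 over shControl, 2 to 3 in shUTX over shMLL1, 1 to 4 in shNRF2 over shUTX and 0 to 1 in H2O2 over CeO2. For the responses it ran from 0 to 1 in shMLL1, 0 to 4 in shUTX and 0 to 2 in shNRF2. A response could not be estimated without the untreated library of that knockdown or of shControl. With counts outside the mitochondrial genome as the denominator, the mean share of the 8 genes was 6.55% in shMLL1, 6.56% in shUTX, 6.70% in shNRF2 and 7.72% in shControl. The causes of these shifts were not tested. No paired analysis was possible by replicate number because each combination has 1 library; the additive model itself compares exposures within derivatives and knockdowns within treatments. The 8 genes had 2371 to 161830 counts per library, so the number of libraries limits these comparisons more than depth does.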
